A study of Mus musculus with 24 samples.

Results

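The change of the liver transcriptome from the middle of the light phase to the start of the dark phase was measured in normal male mice fed ad libitum. The comparison used 6 of the 24 libraries of the study, 3 WT mice killed at 13:30 (ZT 6.5, that is 6.5 h after lights on) and 3 WT mice killed at 20:30 (ZT 13.5). The test covered all genes that passed a filter on low counts, and the genes and lists described below were picked from it. Mice were 16 to 20 weeks old, on a mixed 129/Sv and C57BL/6 background, kept on standard chow with a light phase from 7:00 to 19:00. The study also profiled α7HMZ mice, whose Hnf4a gene makes only the P2 form of the hepatocyte transcription factor HNF4α, and the change in 6 fed α7HMZ libraries at the same times is given beside the WT values where it adds to them. All 12 libraries were run on flow cell 377. The 3 mice of a time were harvested in succession within 30 min, so the time of day and the harvest session cannot be told apart, and 1 light and 1 dark time do not describe a rhythm. RNA came from whole liver, in which fewer cells of a type and less RNA per cell cannot be told apart.

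In every cell the circadian clock is a feedback loop. BMAL1 (gene Arntl) and CLOCK drive the Period and Cryptochrome genes through E-boxes, and their products later shut BMAL1 and CLOCK down. The nuclear receptors REV-ERB (Nr1d1, Nr1d2) and the ROR receptors close a further loop on Arntl through ROR elements (ROREs), and DBP, TEF and HLF compete with NFIL3 at D-boxes. Mice eat mostly at night, so in liver the passage from light to dark joins clock output to the onset of feeding, with its insulin, bile acids and load of secretory protein.

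Promoter sequences are shown for 6 genes that the results below turn on, 3 from the clock, 2 from the unfolded protein response and 1 metallothionein. Each is the RefSeq sequence of GRCm38.p6 from 250 bases before to 50 bases after the annotated start, read along the gene, with matches to a motif in capitals on either strand. Ciart and Cry1 carry the E-box CACGTG, which was in 7.15% of 32851 promoters of that length. Arntl, shown at 1 of its 2 listed starts, carries a RORE (TAGGTCA or TGGGTCA, 6.45% of promoters), and its other start had none. The genes shown were picked among those with a match. Nr1d1, Nr1d2 and Dbp, also described below, had no E-box, D-box or RORE in this window. Hspa5 and Creld2 carry the endoplasmic reticulum stress element (CCAAT, any 9 bases, CCACG, 0.119% of promoters), and Mt2 carries 4 metal response elements (TGCACNC or TGCGCNC), of which 3 or more were in 1.97% of promoters. A match describes these letters only.
Ciart, chr3:95882179-95882478, minus strand: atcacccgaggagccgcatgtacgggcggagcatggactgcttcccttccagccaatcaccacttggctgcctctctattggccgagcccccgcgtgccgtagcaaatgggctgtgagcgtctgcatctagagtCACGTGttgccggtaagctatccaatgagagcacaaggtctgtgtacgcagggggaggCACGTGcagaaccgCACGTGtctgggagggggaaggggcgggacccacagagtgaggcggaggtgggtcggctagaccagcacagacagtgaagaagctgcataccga
Cry1, chr10:85185005-85185304, minus strand: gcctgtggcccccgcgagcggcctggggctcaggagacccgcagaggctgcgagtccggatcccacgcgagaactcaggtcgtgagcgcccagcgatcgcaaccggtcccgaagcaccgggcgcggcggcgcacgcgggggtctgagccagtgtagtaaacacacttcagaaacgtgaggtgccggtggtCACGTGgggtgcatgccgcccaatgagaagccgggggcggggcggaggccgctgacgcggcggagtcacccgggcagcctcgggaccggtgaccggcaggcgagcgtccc
Arntl, chr7:113207261-113207560, plus strand: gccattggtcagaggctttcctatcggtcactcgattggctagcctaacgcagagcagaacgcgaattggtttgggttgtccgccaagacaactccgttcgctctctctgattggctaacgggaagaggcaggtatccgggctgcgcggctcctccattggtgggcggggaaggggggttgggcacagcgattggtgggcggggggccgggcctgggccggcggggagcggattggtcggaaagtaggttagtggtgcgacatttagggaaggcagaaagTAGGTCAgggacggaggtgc
Hspa5, chr2:34771840-34772139, plus strand: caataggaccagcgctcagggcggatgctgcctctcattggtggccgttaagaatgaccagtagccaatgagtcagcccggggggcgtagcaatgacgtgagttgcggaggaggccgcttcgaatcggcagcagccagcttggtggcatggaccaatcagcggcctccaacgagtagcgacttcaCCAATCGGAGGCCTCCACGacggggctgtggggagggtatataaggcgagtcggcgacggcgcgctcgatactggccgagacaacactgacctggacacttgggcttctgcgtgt
Creld2, chr15:88819396-88819695, plus strand: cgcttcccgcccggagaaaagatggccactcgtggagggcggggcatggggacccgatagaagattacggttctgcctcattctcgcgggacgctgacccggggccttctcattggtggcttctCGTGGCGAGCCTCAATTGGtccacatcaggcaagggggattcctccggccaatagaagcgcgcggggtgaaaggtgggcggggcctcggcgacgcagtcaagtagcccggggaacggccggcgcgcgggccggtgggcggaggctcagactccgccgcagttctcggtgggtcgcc
Mt2, chr8:94172368-94172667, plus strand: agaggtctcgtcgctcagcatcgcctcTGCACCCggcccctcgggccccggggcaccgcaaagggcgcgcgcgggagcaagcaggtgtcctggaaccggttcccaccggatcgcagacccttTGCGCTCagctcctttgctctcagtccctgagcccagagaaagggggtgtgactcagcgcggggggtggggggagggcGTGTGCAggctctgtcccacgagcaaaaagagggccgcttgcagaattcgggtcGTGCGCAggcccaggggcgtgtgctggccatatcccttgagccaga

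Between 13:30 and 20:30, 1550 of the 13334 genes tested rose (11.6% of genes tested) and 1329 fell (9.97%), by edgeR's quasi-likelihood test at an adjusted p under 0.05. The median log2 fold change was 0.55 among the genes that rose and -0.69 among those that fell, so most changes were under 2-fold. A log2 fold change of at least 1 was reached by 219 genes that rose and 303 that fell, and one of at least 2 by 46 and 29 genes. Libraries held 8545959 to 28445590 counts, the lowest being WT 20:30 replicate 2. The count of calls leaned on single mice: without WT 13:30 replicate 3 it was 866 higher and 830 lower, and without WT 20:30 replicate 3 it was 878 and 846.

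Transcript length moved with the change, and its values stand beside the gene groups below. In the quintile of genes with the shortest transcripts (median 1368 bases) the median log2 fold change was 0.26, with 23.8% of genes higher and 1.81% lower. In the quintile with the longest (median 6696 bases) it was -0.32, with 2.53% higher and 28.3% lower. Relative to the mean of WT 13:30, the median difference between the shortest and the longest quintile was 0.41, 0.55 and 0.64 in the WT 20:30 libraries (log2), against -0.04 to 0.03 at 13:30. All 3 WT 20:30 libraries therefore stood apart from the WT 13:30 libraries, and also from the α7HMZ 20:30 libraries, at -0.03 to 0.20. Other fed libraries of the same fit ranged widely too, the α7HMZ 10:30 libraries from -0.24 to 0.37 and the WT 10:30 libraries from -0.17 to -0.04. With offsets that removed each library's trend with transcript length, an alternative added after the data were seen, 1072 genes rose (8.04%) and 788 fell (5.91%), of which 849 and 657 were among the main calls. What part the length trend has in any one result was not tested, and counts with these length offsets are given beside the gene groups. Each count of list members in the main test stands against the 11.6% of all genes that rose and the 9.97% that fell.

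**Figure D1:**
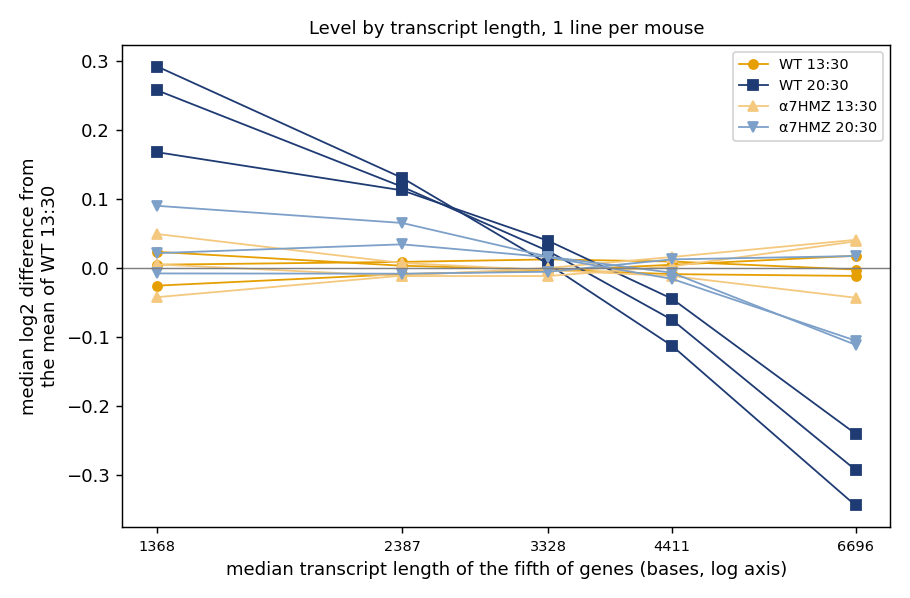
Median log2 difference from the mean of WT 13:30 (vertical axis) in 5 groups of genes by transcript length (horizontal axis, median length in bases, log scale), with 1 line per mouse for the 4 groups of 3 fed mice at 13:30 and 20:30. The WT 20:30 lines fall from the shortest to the longest genes, with a difference of 0.41 to 0.64 between the ends, while the other lines lie closer to 0.

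Clock genes held some of the largest changes. The activator Arntl (BMAL1) rose, and of the repressors Nr1d1 (REV-ERBα), Nr1d2 (REV-ERBβ), Ciart and Bhlhe41 (DEC2) fell while Cry1 rose. Of the 18 clock genes described here, 3 rose and 5 fell. With length offsets 2 rose and the same number fell.

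Nr1d1, the heme-sensing repressor of Arntl, was at 120, 115 and 126 CPM (counts scaled to library size) at 13:30 and at 13.1, 5.82 and 8.60 CPM at 20:30, a log2 fold change of -3.66 (SE 0.26, adjusted p = 4.98e-07). Every 20:30 library lay far below every 13:30 library. Its paralog Nr1d2 fell less, from 137, 133 and 135 CPM to 90.6, 70.7 and 70.5 CPM (log2 fold change -0.80, SE 0.21). Both light and dark values of Nr1d2 were again apart. For Rora, which activates through the sites that REV-ERB blocks, the log2 fold change was -0.89 (SE 0.33) and did not pass the test (adjusted p = 0.060).

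Arntl, whose promoter with a RORE is printed above, was at 1.90, 2.1 and 1.60 CPM in light and 5.21, 8.02 and 8.34 CPM in dark, a log2 fold change of 1.90 (SE 0.33, adjusted p = 0.00118). The groups did not overlap, with WT 20:30 replicate 1 the lowest of the dark libraries. Its partner Clock was at 46.2, 34.4 and 42.4 CPM in light and 41.2, 37.5 and 32.2 CPM in dark and did not pass the test (log2 fold change -0.15, or 0.31 with length offsets). Npas2, a substitute for Clock, stayed at 0.099 to 0.232 CPM in all 6 libraries, too low to compare.

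Among the E-box repressors the members did not move together. Cry1, the late repressor, rose from 9.13, 8.89 and 12.4 CPM to 22.8, 27.7 and 28.6 CPM (log2 fold change 1.38, SE 0.17). Ciart, deposited under its older symbol Gm129 and with 3 E-boxes in the promoter printed above, fell from 24.6, 28.7 and 24.5 CPM to 6.64, 8.66 and 5.65 CPM (log2 fold change -1.92, SE 0.41). Both groups of libraries were fully apart for each of these genes. Bhlhe41 fell from 14.8, 8.35 and 13.6 CPM to 2.13, 1.42 and 0.514 CPM (log2 fold change -3.12, SE 0.47), while Bhlhe40 had -0.68 (SE 0.28, adjusted p = 0.086). Per1, Per2, Per3 and Cry2 did not pass the test, with log2 fold changes of -0.89, 0.25, -0.42 and -0.38 and SEs of 0.36, 0.28, 0.25 and 0.15.

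The D-box factors also split. Dbp fell from 96.7, 123 and 118 CPM to 23.6, 14.7 and 20.6 CPM (log2 fold change -2.50, SE 0.35, adjusted p = 0.000221). Nfil3, which represses at the same sites, rose from 18.5, 18.1 and 14.3 CPM to 27.4, 23.9 and 34.0 CPM (log2 fold change 0.75, SE 0.19, or 0.58 with length offsets, adjusted p = 0.0536). No light library of either gene reached the dark range, but Nfil3 lost its call without WT 13:30 replicate 3 and without WT 20:30 replicate 3. Neither Tef, at -0.44 (SE 0.16, log2, adjusted p = 0.052), nor Hlf, at 0.30 (SE 0.19), passed. A D-box (TTATGTAA or TTACGTAA) was in the printed window's length of promoter for 23 of 1145 genes that rose (2.01%), 3 of 990 that fell (0.303%) and 0.816% of those not called. For the E-box the shares of genes that rose, fell and were not called were 11.9%, 14.4% and 11.2%. For the RORE they were 8.12%, 5.45% and 6.32%, and for the metal response element 36.1%, 45.3% and 39.3%. These shares are a description.

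**Figure D2:**
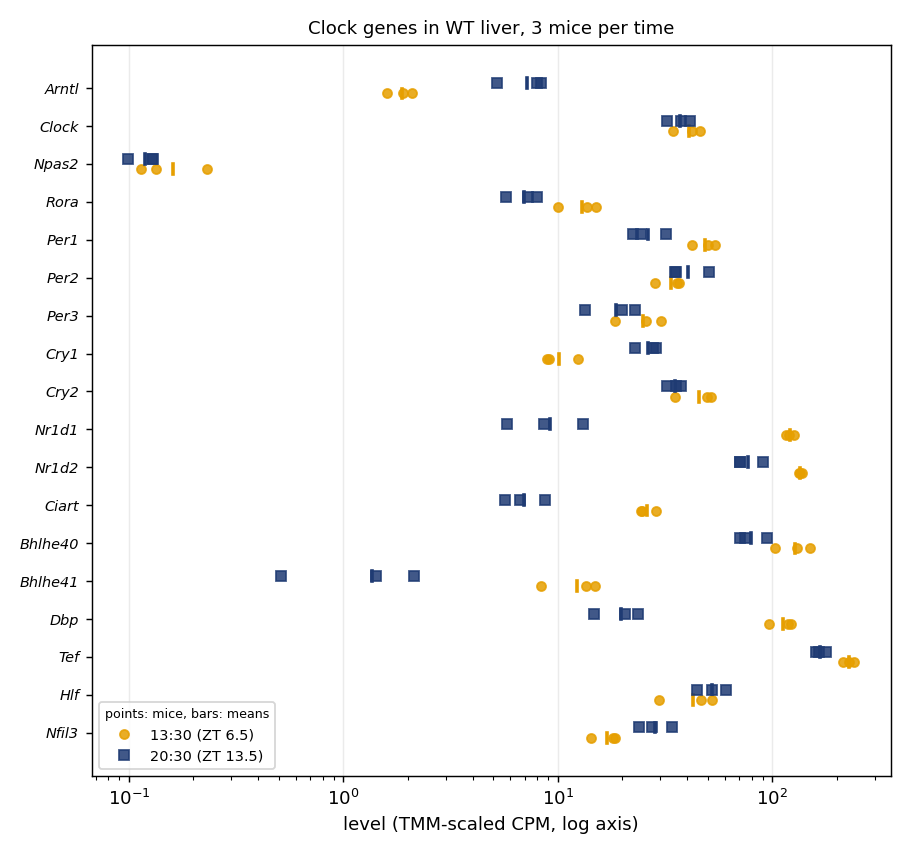
Level of 18 clock genes in TMM-scaled CPM (horizontal log axis) in the 3 WT mice at 13:30 (circles) and the 3 at 20:30 (squares), with the mean of each group as a bar. Nr1d1 sits at 115 to 126 CPM in light and 5.82 to 13.1 CPM in dark, and Cry1 at 8.89 to 12.4 CPM and 22.8 to 28.6 CPM.

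Among 20 further genes known to follow the clock in liver, 7 rose and 3 fell (5 and 3 with length offsets), with a median log2 fold change of 0.22 against 0.02 over all genes tested. Rgs16, a brake on G protein signalling, was at 44.3, 278 and 106 CPM in light and 14.3, 3.62 and 13.4 CPM in dark, a log2 fold change of -3.70 (SE 0.67). The light mice differed widely among themselves, yet the lowest of them was above every dark mouse. Slc45a3, a sugar transporter, rose from 16.0, 19.5 and 17.0 CPM to 63.4, 70.0 and 90.5 CPM (log2 fold change 2.09, SE 0.20). Insig2, a retention factor for SREBP, rose by 0.82 (SE 0.15) on the log2 scale. Pfkfb3, which makes the activator of phosphofructokinase, fell by 1.88 (SE 0.30), and Lpin1, a phosphatidate phosphatase, fell by 1.56 (SE 0.38). The cell cycle kinase Wee1 rose by 0.65 (SE 0.20). Without WT 13:30 replicate 1 or 3, or without WT 20:30 replicate 3, 4 of the 20 rose.

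Among the largest rises were those of the metallothioneins, small cysteine-rich proteins that bind zinc and are induced by metals and glucocorticoids. Mt2 went from 5.14, 5.49 and 3.95 CPM to 287, 187 and 187 CPM, a mean ratio of 45.3 and a log2 fold change of 5.49 (SE 0.60, adjusted p = 3.66e-05). Mt1 went from 45.4, 30.4 and 32.6 CPM to 615, 316 and 495 CPM (log2 fold change 3.72, SE 0.47). In both genes every dark mouse was many times above every light mouse, with replicate 1 the highest. Mt1 and Mt2 also rose in α7HMZ liver, by 2.37 and 4.04.

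The list of glucocorticoid-responsive genes to which they belong had calls in both directions. Of its 20 members 4 rose and 1 fell (4 and 2 with length offsets), against 11.6% and 9.97% of all genes. The median log2 fold change was -0.06. Cdkn1a, the p21 inhibitor of cyclin-dependent kinases, rose from 1.25, 2.16 and 1.37 CPM to 13.9, 6.47 and 8.79 CPM (log2 fold change 2.60, SE 0.31), and Hsd11b1, which regenerates active corticosterone, rose by 0.67. Klf9, a Krüppel-like repressor, fell from 132, 135 and 129 CPM to 78.6, 48.2 and 62.2 CPM (log2 fold change -1.06, SE 0.14). Dark and light libraries were apart for Cdkn1a and Klf9. The classical targets Fkbp5 and Tsc22d3 had log2 fold changes of 0.01 and -0.05 and did not pass.

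The other large rises were of mixed kind. Corin, a serine protease known from heart, had 4, 2 and 2 counts at 13:30 and 296, 91 and 169 counts at 20:30 (log2 fold change 6.67, SE 1.04). Its level was uneven in other fed mice: α7HMZ mice had 5.17, 3.57 and 0.115 CPM at 13:30 and 0.176, 6.26 and 6.64 CPM at 10:30, so values as low as in the WT 13:30 mice (0.067 to 0.185 CPM) occurred within other groups. Serpina3c rested on 1 mouse, with 1.88, 15.9 and 1.80 CPM at 20:30 against 0.801 to 1.11 CPM at 13:30, and reads of this protease inhibitor family can be shared between paralogs. The linker histone gene Hist1h1c and Pcp4l1, a calmodulin-binding peptide gene, rose by 2.18 (SE 0.27) and 2.11 (SE 0.24). Cml5, Fam131c, Gm6548 and E030018B13Rik rose by 2.1 to 2.82.

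Among the largest falls were several signalling and transport genes. Mbd1, a methyl-CpG binding protein gene, fell from 210, 138 and 109 CPM to 31.4, 29.5 and 30.4 CPM (log2 fold change -2.32, SE 0.22). Abcd2, a peroxisomal transporter of very long chain fatty acids, fell from 15.7, 20.4 and 15.6 CPM to 4.36, 2.84 and 3.98 CPM (log2 fold change -2.16, SE 0.21). Dark libraries of both lay below all light ones, in the case of Mbd1 within a narrow range. Pik3c2g, a class II phosphoinositide 3-kinase, fell by 2.16 (SE 0.46), and Vldlr, the VLDL receptor, by 2.07 (SE 0.32). Gnat1, Zfp9 and D830031N03Rik fell by 2.23 to 2.56. The glycogen-targeting subunit gene Ppp1r3g fell by 2.42 (SE 0.66), a call lost without WT 13:30 replicate 2. By smallest p the genes that fell included Phf17, Znrf2 and Narf, at -1.10, -1.63 and -1.08, and those that rose included Cyp3a13, 8430419L09Rik, Mmp24 and Lrfn3, at 1.23, 1.13, 1.67 and 1.93.

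Genes of the unfolded protein response (UPR), which expands the folding capacity of the endoplasmic reticulum, were called lower in 10 cases. Of 23 members, 10 fell and none rose (9 and none with length offsets), against 9.97% and 11.6% of all genes. The median log2 fold change was -0.44. Those that fell were the chaperones Hspa5 (BiP), Hyou1, Dnajb9 and Sdf2l1, the disulfide isomerase Pdia4, the secreted factors Manf and Creld2, and the degradation genes Edem1, Sel1l and Syvn1. By contrast Hsp90b1, Calr and Canx, also chaperones of that compartment, had log2 fold changes of -0.39, -0.19 and -0.05 and did not pass.

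WT 13:30 replicate 1 was the highest library for each of the 10. Syvn1, the ubiquitin ligase HRD1, was at 317, 120 and 160 CPM in light and 53.8, 58.6 and 54.9 CPM in dark (log2 fold change -1.84, SE 0.32). Hspa5, with the stress element printed above, was at 1880, 753 and 1034 CPM and then 494, 718 and 555 CPM (log2 fold change -1.05, SE 0.27). Creld2, with the same element, was at 226, 58.3 and 88.8 CPM and then 27.7, 46.8 and 44.6 CPM (log2 fold change -1.66, SE 0.42). For all 3 genes the light and dark libraries did not overlap even though the light ones were spread widely. Without WT 13:30 replicate 1, 3 of the 23 members were called lower. Hspa5 and Creld2 were named after their values were seen.

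Heat shock genes, mostly chaperones of the cytosol, gave a like picture on a smaller scale. Of 22 members 6 fell and 1 rose (6 and none with length offsets), against 9.97% and 11.6% of all genes. The median log2 fold change was -0.23. Hspa1a and Hspa1b, near-identical HSP70 genes whose reads cannot be well split, fell by 1.47 (SE 0.34) and 1.44 (SE 0.36), and Hsph1 (HSP110) fell from 179, 80.6 and 120 CPM to 45.7, 58.6 and 55.3 CPM. Serpinh1, the collagen chaperone, fell by 0.69 and Fkbp4 rose by 0.47. Without WT 13:30 replicate 1, again the highest light library for Hspa1a, Hspa1b and Hsph1, 2 of the 22 fell. The integrated stress response list held 2 genes that fell of 15, Trib3 (log2 fold change -1.83, SE 0.31) and Vldlr, and Atf4 itself had 0.29 (SE 0.14) and did not pass. The cold-inducible genes Cirbp and Rbm3 did not pass.

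**Figure D3:**
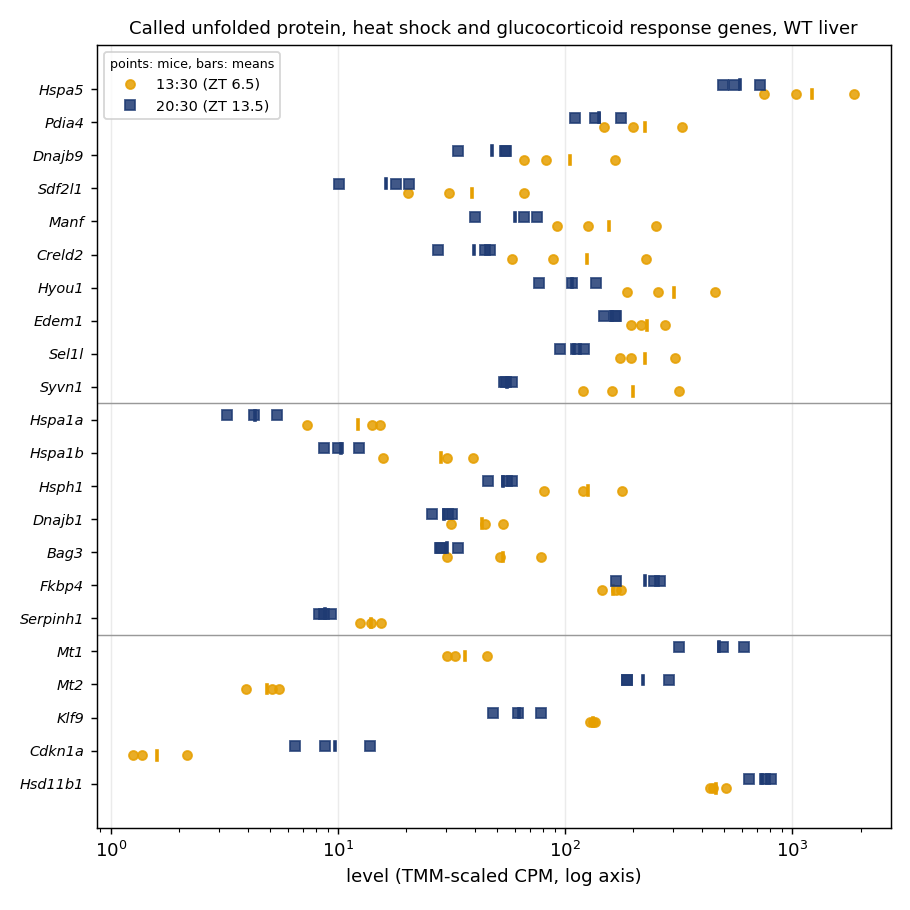
Level in TMM-scaled CPM (horizontal log axis) of the called members of the unfolded protein (top), heat shock (middle) and glucocorticoid (bottom) response lists, with 3 WT mice at 13:30 (circles), 3 at 20:30 (squares) and group means as bars. The 10 genes of the top block are lower at 20:30, with 1 light mouse at the high end, and Mt1 and Mt2 are far higher.

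Acute phase genes, secreted by hepatocytes, had the largest share of members higher among the 41 lists, 68.0%. Of 25 members 17 rose and none fell (14 and none with length offsets), all 25 had a positive log2 fold change, and the median was 0.58 against 0.02 over all genes. Hpx (hemopexin) went from 2382, 2542 and 2372 CPM to 5133, 4931 and 6453 CPM (log2 fold change 1.18, SE 0.18). Hp (haptoglobin) went from 1672, 1791 and 1562 CPM to 3178, 3576 and 3376 CPM (log2 fold change 1.01, SE 0.13). Both groups were apart without overlap for each gene, with mean ratios of 2.26 and 2.02, and the log2 fold changes in α7HMZ liver were 0.68 and 0.59. Orm1 and Orm2, paralogs that can share reads, rose by 0.83 and 0.91. The inducible serum amyloids Saa1 and Saa2, with 0.69 (SE 0.32) and 0.37 (SE 0.36), did not pass. With offsets for GC content and full quantile scaling, the kind of correction the authors used, 8 of the 25 rose. For counts with GC and quantile offsets, here and below, the share of all genes called with them is not given. They do not stand against the 11.6% and 9.97% of the main test. Other secreted factors included Agt (angiotensinogen), Inhbc, Rbp4 (retinol carrier) and Fetub, at 0.72, 0.71, 0.68 and 0.47, among 7 hepatokines of 24 that rose (5 with length offsets, 2 with GC and quantile offsets, 4 without WT 20:30 replicate 3).

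Fatty acid oxidation genes were called higher more often than lower, 57.1% and 3.57% of those tested against 11.6% and 9.97% of all genes. Of 28 oxidation and ketogenesis genes 16 rose and 1 fell (11 and 1 with length offsets), with a median log2 fold change of 0.39. Of 24 synthesis genes 2 rose and 4 fell (1 and 4 with length offsets), with a median of -0.17, shares of 8.33% and 16.7% that lie nearer to those of all genes. The oxidation count was 10 without WT 13:30 replicate 2 and 10 without WT 20:30 replicate 1, and 8 with GC and quantile offsets.

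Of the oxidation genes, Cyp4a10, a microsomal ω-hydroxylase under PPARα, rose from 201, 66.8 and 191 CPM to 1205, 431 and 742 CPM (log2 fold change 2.38, SE 0.36). Acot1, an acyl-CoA thioesterase of the same programme, rose from 27.0, 30.3 and 46.3 CPM to 133, 79.1 and 105 CPM (log2 fold change 1.62, SE 0.23). Replicate 2 was the lowest dark mouse for both, still above all light mice. Cpt2 and Slc25a20, which bring acyl groups into mitochondria, rose by 0.59 (SE 0.10) and 0.47 (SE 0.09). The single member that fell was Ppara itself, at -0.60 (SE 0.19). Its 20:30 values were 311, 191 and 292 CPM against 389 to 413 CPM at 13:30. In 5 of the 6 leave-outs no member of the list was called lower.

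Of the synthesis genes, Scd1 (stearoyl-CoA desaturase) fell from 4605, 10420 and 7053 CPM to 3595, 2385 and 3460 CPM (log2 fold change -1.23, SE 0.28). Elovl6, which elongates the same fatty acids, fell from 258, 116 and 125 CPM to 72.3, 57.0 and 54.4 CPM (log2 fold change -1.44, SE 0.34). Light mice were spread for both genes, in different order, and none reached the dark range. Lpin1 (above) and Acly, which supplies cytosolic acetyl-CoA, also fell, Acly by 0.57 (SE 0.16). Agpat2, an acyltransferase of triglyceride synthesis, went the other way, from 123, 106 and 103 CPM to 218, 246 and 289 CPM (log2 fold change 1.18, SE 0.13). Srebf1, the regulator of the pathway, had 0.54 (SE 0.28) and Fasn -0.49 (SE 0.26), and neither passed.

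Cholesterol synthesis had few calls, with 1 of 25 members higher and 2 lower (1 and 3 with length offsets). Stard4, a sterol carrier, fell from 141, 98.0 and 133 CPM to 48.9, 68.8 and 49.0 CPM (log2 fold change -1.17, SE 0.17), and Sc5d, a late enzyme of the pathway, fell by 0.92 (SE 0.20). Srebf2, its regulator, rose by 0.47 (SE 0.16).

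Of 28 genes for apolipoproteins, VLDL assembly and lipid droplets, 13 rose and 1 fell, against 5 and 1 with length offsets, and the median log2 fold change went from 0.45 to 0.19 between those fits. The list has short transcripts (median 1583 bases). Apoa4 rose from 110, 149 and 130 CPM to 586, 303 and 312 CPM (log2 fold change 1.63, SE 0.32). Plin5, which coats droplets for oxidation, rose from 40.5, 57.8 and 56.9 CPM to 135, 101 and 118 CPM (log2 fold change 1.19, SE 0.20). No dark value of these genes fell in the light range. Mttp, which loads lipid onto apolipoprotein B, rose by 0.47 (SE 0.09), and Apoc4 by 0.72 (SE 0.15), and these 4 genes passed with length offsets as well. Without WT 20:30 replicate 3, 7 of the 28 rose, and 8 without WT 13:30 replicate 1 or 3.

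In bile acid metabolism 6 of 24 genes rose and 2 fell (4 and 1 with length offsets). The genes that rose were mostly of the side chain and conjugation steps. Slc27a5, the bile acid-CoA ligase, went from 710, 729 and 747 CPM to 1146, 1209 and 1295 CPM (log2 fold change 0.74, SE 0.10), and Amacr, Baat and Cyp27a1 rose by 0.52, 0.49 and 0.48. The canalicular exporters Abcb11 and Abcc2 fell by 0.46 and 0.65, but no member was called lower without WT 13:30 replicate 3 or without WT 20:30 replicate 3. Cyp7a1, the rate-limiting enzyme, was at 124, 126 and 250 CPM and then 159, 114 and 117 CPM and did not pass. Slc10a2, the apical bile acid transporter of ileum and bile duct, fell by 1.08 (SE 0.28), a call lost without WT 13:30 replicate 1.

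Of 18 glycolytic and pentose phosphate genes 7 rose and 1 fell (4 and 1 with length offsets, 3 higher with GC and quantile offsets). Gapdh, Tpi1 and Pfkl rose by 0.60, 0.60 and 0.65 with SEs of 0.10, 0.12 and 0.13. Pfkfb3 was the member that fell.

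Gluconeogenesis genes were mixed, with 4 of 16 higher and 2 lower (2 and 2 with length offsets). Got1, the cytosolic aspartate aminotransferase, fell from 510, 565 and 574 CPM to 292, 323 and 353 CPM (log2 fold change -0.77, SE 0.16). Foxo3, a transcription factor restrained by insulin, fell from 24.2, 25.5 and 25.9 CPM to 11.0, 8.28 and 10.8 CPM (log2 fold change -1.31, SE 0.26). Light and dark values of both were well separated. Fbp1 and Mdh1 rose by 0.42 and 0.52, while the rate-limiting genes Pck1 and G6pc, at -0.29 (SE 0.38) and -0.14 (SE 0.41), did not pass. In the leave-outs the number higher ranged from 1 to 3.

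Of 19 insulin signalling genes, 6 fell in the main test and none rose, with a median log2 fold change of -0.39. With length offsets 2 fell, 2 rose and the median was -0.01. Their median transcript length was 7113 bases. Pdpk1, the kinase PDK1 upstream of AKT, fell from 59.3, 54.1 and 58.4 CPM to 34.8, 35.2 and 29.8 CPM (log2 fold change -0.78, SE 0.11), or by 0.46 with length offsets, and Foxo3 also passed both tests. Tsc1 and Rictor, at -0.56 and -0.68, passed the main test and not the one with length offsets. Of 14 glycogen genes 1 rose and 2 fell (none and 3 with length offsets), against 11.6% and 9.97% of all genes.

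The list of drug and steroid metabolising cytochrome P450 genes also holds Por and Ahr. In it 19 of 38 members rose and 1 fell, with a median log2 fold change of 0.52 (10, 1 and 0.32 with length offsets). The count was 12 without WT 13:30 replicate 2 or 3, 10 without WT 20:30 replicate 3 and 11 with GC and quantile offsets, and reads of the Cyp2 and Cyp3 families can be split between close paralogs. Cyp17a1, a steroid 17-hydroxylase, rose from 7.92, 8.82 and 10.4 CPM to 36.4, 47.1 and 32.0 CPM (log2 fold change 2.09, SE 0.26). Cyp3a13 rose from 102, 109 and 115 CPM to 242, 258 and 265 CPM (log2 fold change 1.23, SE 0.12, adjusted p = 1.1e-05). Both groups were tight and apart. Cyp2c55 fell from 11.4, 15.8 and 13.7 CPM to 5.65, 2.72 and 4.69 CPM (log2 fold change -1.58, SE 0.28). Phase II enzymes gave 12 of 38 higher and 2 lower, or 4 and 4 with length offsets. For both lists the shares over all genes were 11.6% and 9.97%. Sult1a1, a sulfotransferase, rose by 0.82 (SE 0.16), and Gstm4, a glutathione transferase, fell by 0.69 (SE 0.12). Without WT 13:30 replicate 3, 4 of the 38 rose, and 6 without WT 13:30 replicate 2 or WT 20:30 replicate 3.

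Nuclear receptors that induce these enzymes were among those that rose. Nr1i3 (CAR) went from 58.2, 74.4 and 78.2 CPM to 155, 135 and 131 CPM (log2 fold change 1.00, SE 0.18), Nr1i2 (PXR) rose by 0.60 (SE 0.15), and Nr1h3 (LXRα) by 0.60 (SE 0.11). Nr2f6, an orphan receptor, rose by 0.59 (SE 0.14). The coactivator Ppargc1b fell from 8.66, 11.2 and 8.36 CPM to 3.87, 2.84 and 3.98 CPM (log2 fold change -1.37, SE 0.22). No light value of Nr1i3 or Ppargc1b fell among the dark ones. In all, 4 of 20 rose and 4 fell (4 and 2 with length offsets), against 11.6% and 9.97% of all genes. The number that fell was 2 without WT 13:30 replicate 1 or 3 or without WT 20:30 replicate 2. Of 13 hepatocyte transcription factors, 1 fell, Onecut2 (log2 fold change -0.91, or -0.25 with length offsets and not called). Hnf4a was at 1106, 1039 and 978 CPM and then 901, 580 and 928 CPM, with a log2 fold change of -0.37 (SE 0.17, adjusted p = 0.11), and its counts do not separate the P1 and P2 forms.

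In amino acid catabolism and the urea cycle 12 of 38 genes rose and 2 fell (7 and 3 with length offsets, 4 and 6 with GC and quantile offsets). Prodh, the first enzyme of proline breakdown, rose from 121, 148 and 142 CPM to 273, 287 and 279 CPM (log2 fold change 1.03, SE 0.13). Asl, argininosuccinate lyase, rose from 470, 564 and 558 CPM to 951, 1102 and 1114 CPM (log2 fold change 0.99, SE 0.14). These were clear of overlap in every mouse. Mat1a, which makes S-adenosylmethionine, rose by 0.69 (SE 0.14), and Amdhd1, of histidine breakdown, fell by 0.87 (SE 0.11). Without WT 13:30 replicate 1 or WT 20:30 replicate 2, 7 of the 38 rose. Of 27 iron and heme genes 8 rose and 1 fell (6 and none with length offsets), with Hfe2 (hemojuvelin) at 1.10 (SE 0.18), Cp (ceruloplasmin) at 0.74 (SE 0.15), Blvrb at 0.65 (SE 0.14) and Aco1, the iron sensor IRP1, at 0.55 (SE 0.09).

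Members of 3 lists of large complexes were called higher in the main test and much less often with length offsets. Of 77 respiratory chain genes (median length 1231 bases) 40 rose and none fell, against 14 and none. Of 76 cytosolic ribosomal protein genes (median length 1100 bases) 23 rose and none fell, against 4 and none. Of 38 proteasome genes 13 rose and none fell, against 5 and 2. No call in these lists reached a log2 fold change of 1. In the proteasome list Psmb8 and Psmb10 rose by 0.91 and 0.71, highest in WT 20:30 replicates 1 and 2 respectively. Atp5c1 and Sdhb, of complexes V and II, rose by 0.63 and 0.60, Rps14 by 0.78 and Psmb6 by 0.56. For Atp5c1, Sdhb, Rps14 and Psmb6 the highest library was WT 20:30 replicate 3. Without that library the counts higher were 11, 1 and 6, and without WT 13:30 replicate 3 they were 17, 5 and 5. Median log2 fold changes fell from 0.40 to 0.14, from 0.32 to 0.05 and from 0.22 to 0.10 with length offsets.

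Autophagy genes were called in both directions. Of 33 members 8 rose and 5 fell (5 and 5 with length offsets). The genes that fell included the initiation and membrane genes Ulk1, Atg13, Atg14 and Atg2b, at -0.70, -0.76, -0.65 and -0.71 with SEs of 0.12 to 0.14, all 4 without overlap and all 4 called with length offsets. The genes that rose included Bnip3, Atg5, Gabarap, Atg4a and Atg4d, at 0.60, 0.55, 0.50, 0.46 and 0.41. Lamp2 and the cathepsins Ctsb and Ctsd also rose, at 0.41, 0.32 and 0.46. With length offsets Atg5, Atg4d, Lamp2, Ctsb and Ctsd kept their call. Without WT 13:30 replicate 3, 4 rose, and without WT 20:30 replicate 3, 3 rose. In endoplasmic reticulum translocation and vesicle traffic 5 of 39 rose and 4 fell (5 and 2 with length offsets), shares close to the 11.6% and 9.97% of all genes. Sar1b, a GTPase of COPII coats, rose by 0.66 (SE 0.14). In the leave-outs 2 to 5 rose and 0 to 6 fell, with none lower without WT 13:30 replicate 1 or WT 20:30 replicate 3.

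Cell cycle genes gave 5 higher and 3 lower of 28 (4 and 2 with length offsets), or 17.9% and 10.7% against 11.6% and 9.97% of all genes. Ccnd1 (cyclin D1) fell from 23.1, 27.2 and 26.3 CPM to 11.7, 10.7 and 11.7 CPM (log2 fold change -1.16, SE 0.20), Ccne1 (cyclin E1) fell by 1.49 (SE 0.30) and Cdk1 rose by 1.22 (SE 0.22). Light and dark values of Ccnd1 were well apart. Myc rose from 3.43, 4.16 and 3.66 CPM to 13.3, 14.5 and 17.3 CPM (log2 fold change 2.00, SE 0.60, adjusted p = 0.025), while ribosome biogenesis, the list it belongs to, had 3 higher of 46, none lower (2 and 1 with length offsets) and a median log2 fold change of -0.14. The Myc call was lost in 4 of the 6 leave-outs, the 3 of a 13:30 library and that of WT 20:30 replicate 3. Among immediate early genes Zfp36 and Egr1 fell, at -0.83 and -1.64, and 2 of 24 were called, none of them higher (1 lower with length offsets).

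The remaining lists had at most 4 members called in either direction, and over all genes 11.6% rose and 9.97% fell. Shares higher were above that of all genes for perivenous, periportal and tubulin genes, and near it for interferon response and NRF2 genes. Of 28 interferon response genes 3 rose (1 with length offsets), with B2m at 0.75. Of 18 NRF2 target genes 2 rose and 1 fell (1 and 1 with length offsets), with Gpx1 at 0.42 and Cat at -0.31. Of 20 SRF and actin genes 1 fell, Filip1l (3 with length offsets). Of 11 tubulins 3 rose, Tubb2a, Tubb2b and Tubg1, at 1.17, 1.30 and 0.48 (2 higher and 1 lower with length offsets). Of 13 growth hormone genes 1 rose, Igfals, at 0.72 (2 with length offsets). Of 14 perivenous genes 4 rose and 1 fell, the WNT target Axin2, at -0.89 (3 and 1 with length offsets). Of 11 periportal genes 3 rose, none of them with length offsets. Counts this small moved with single libraries: without WT 20:30 replicate 3, 1 perivenous and 1 periportal gene rose, and without WT 20:30 replicate 1, 6 tubulins rose.

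**Figure D4:**
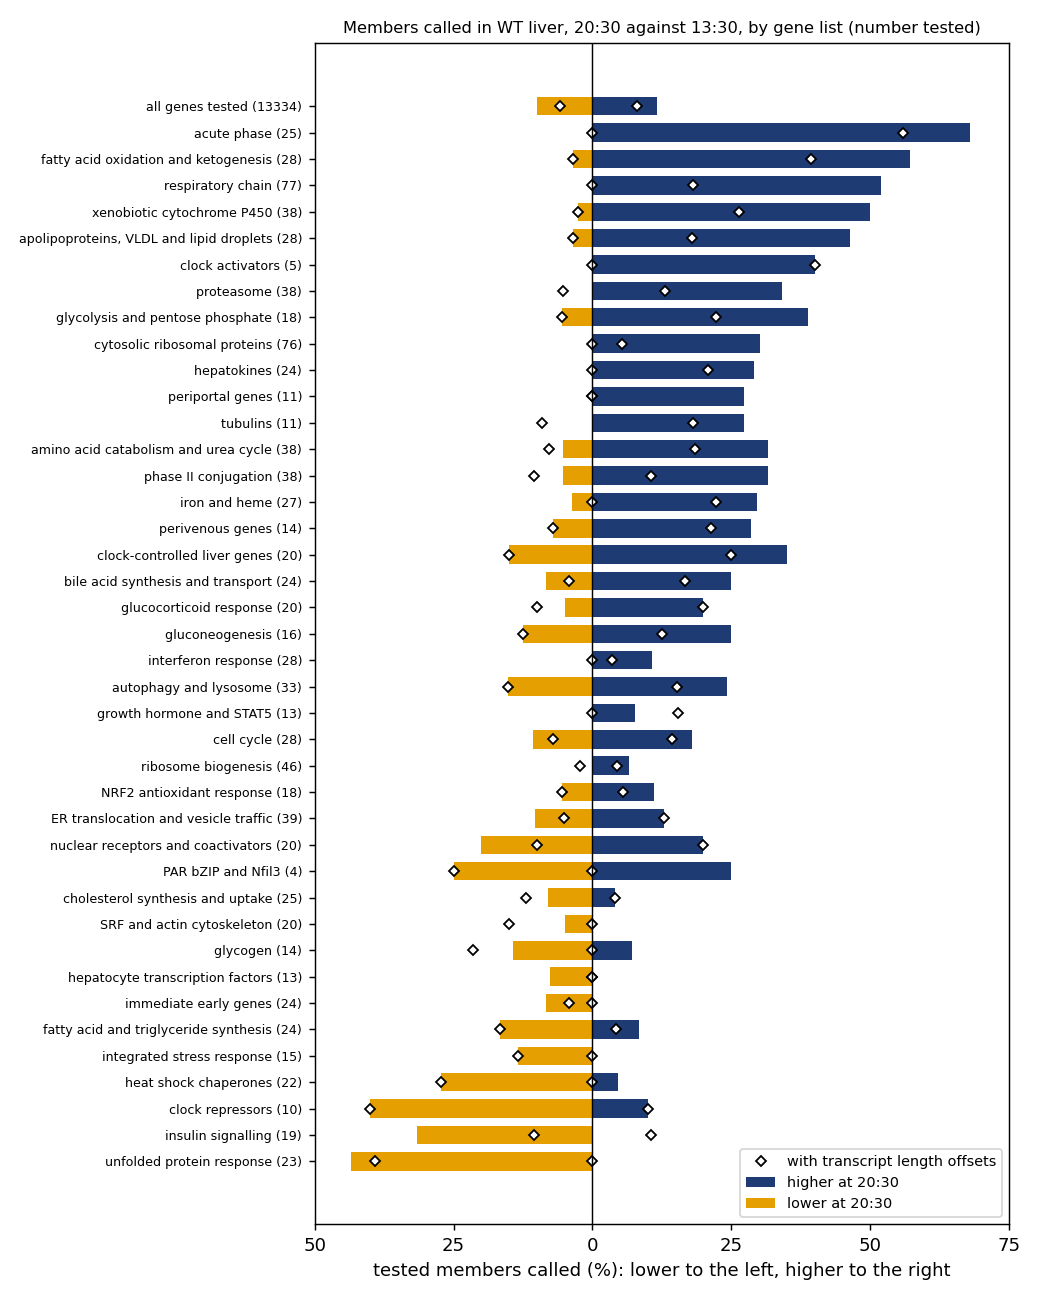
Share of the tested members of each list called higher (bars to the right, %) or lower (bars to the left, %) at 20:30 in WT liver, with the number tested in parentheses and all genes tested at the top (11.6% and 9.97%). Diamonds give the same shares with transcript length offsets, which lie well inside the bars for the respiratory chain and ribosomal proteins and close to the bar ends for the unfolded protein response.

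Markers of some other cells differed between the times. Among the hepatocyte markers Ass1 was at 0.149 to 0.385 CPM in all 6 libraries, too low to be tested. The others were present throughout, and 5 of 10 tested rose. Bile duct markers rose in 3 of 7 (Krt19, Krt7 and Muc1), with a summed level of 37.1 to 41.7 CPM at 13:30 and 42.7 to 81.9 CPM at 20:30. Krt19 was at 1.07, 1.43 and 0.572 CPM and then 1.04, 18.5 and 4.30 CPM, so WT 20:30 replicate 2 carried most of it. That library also held the pancreatic acinar marker Ctrb1, at 5.04 CPM against 0 in all 13:30 libraries, and the summed acinar level was 1.55 to 1.81 CPM at 13:30 and 1.98 to 22.0 CPM at 20:30. Other acinar markers were also highest in WT 20:30 replicate 2. There Cela2a, called higher, was at 5.56 CPM against 1.11 to 1.56 CPM at 13:30. Try4 and Pnlip were at 1.81 and 1.68 CPM there and at most 0.046 CPM at 13:30. Prss1 and Zg16, further acinar markers, were at 0 in all 6 libraries. Mesothelial markers rose in 2 of 3 (sum 1.02 to 2.52 and then 4.02 to 5.07 CPM). Of the 13 Kupffer cell markers none was called (sum 391 to 426 and then 270 to 371 CPM). Sinusoidal endothelial markers had 1 higher and 3 lower of 14, and stellate cell markers 2 lower of 12. No T cell, B cell, neutrophil, erythroid or adipocyte marker was called, but few could be. Only 2 of 7 T cell, 3 of 5 B cell, 1 of 8 erythroid, 1 of 5 adipocyte and none of the neutrophil markers were tested. The part of these other cells in the gene groups above was not tested. Without WT 20:30 replicate 2 the counts were 1205 higher and 935 lower. Leaving out each WT library in turn gave 866 to 1500 higher and 830 to 1186 lower, so lower counts were not particular to this library.

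The same interval in α7HMZ liver gave 421 genes higher (3.16%) and 274 lower (2.05%). Of the genes called in WT, 84.6% had the same sign in α7HMZ, against 66.3% of all genes tested. Called in the same direction in both genotypes were 258 genes higher and 137 lower, and 5 were called in opposite directions. A call in one genotype only is no test of a difference: the difference in the change itself was called for 30 genes (0.225%), with 2058 at an unadjusted p under 0.05 and 219 called by DESeq2. With length offsets it was called for 16 genes.

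Within the clock Nr1d1, Dbp, Cry1 and Arntl changed in the same direction in both genotypes, with log2 fold changes in α7HMZ liver of -4.10, -4.20, 1.98 and 4.08. The size for Arntl differed more between genotypes (1.90 in WT, difference 2.18), but this difference did not pass the test (adjusted p = 0.065). Clock was the clock gene whose difference passed, at -0.15 in WT and 0.84 in α7HMZ (difference 0.98, SE 0.18, adjusted p = 0.0219). With length offsets the log2 fold change of Clock in WT was 0.31. Got1 fell in WT and rose in α7HMZ, from 145, 147 and 188 CPM to 309, 339 and 342 CPM, a difference of 1.81 (SE 0.23). The 20:30 levels of both genotypes overlapped, and it was at 13:30 that α7HMZ mice were lower than WT mice. Cd207, langerin, rose in WT from 1.30, 2.36 and 2.58 CPM to 5.31, 9.70 and 7.19 CPM and fell in α7HMZ from 6.55, 8.34 and 8.03 CPM to 3.11, 2.62 and 3.38 CPM. No value of one time reached the other in either genotype. The gene 8430419L09Rik rose in WT by 1.13, to 61.0 to 66.7 CPM, and stayed at 60.1 to 77.3 CPM at both times in α7HMZ (log2 fold change -0.15, SE 0.11). Slc10a2 fell in both, further in α7HMZ (log2 fold change -4.06, SE 0.41).

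**Figure D5:**
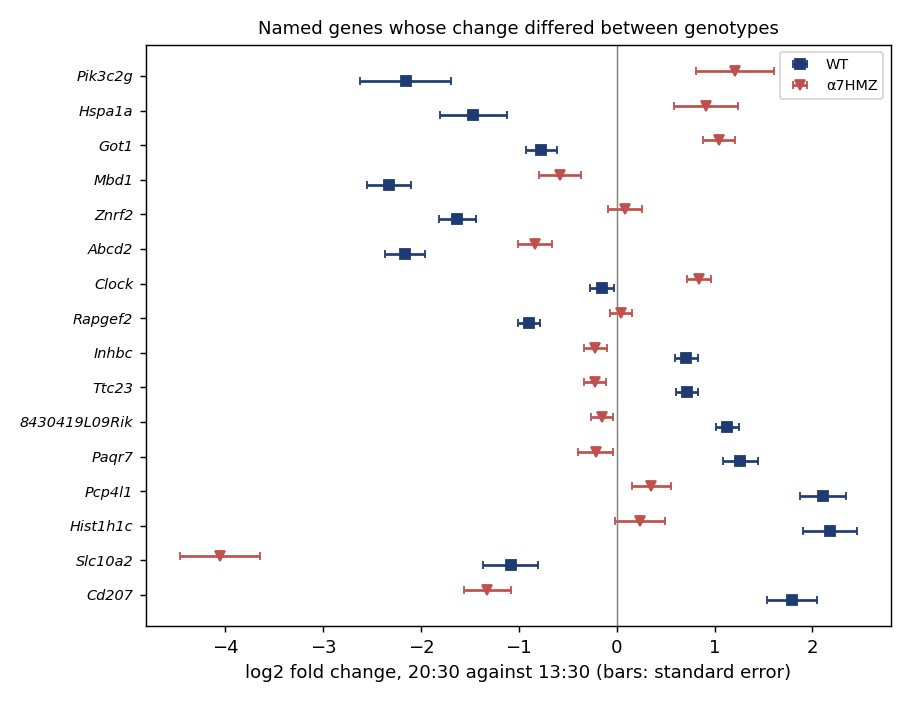
Log2 fold change from 13:30 to 20:30 (horizontal axis, bars: standard error) in WT (squares) and α7HMZ liver (triangles) for the 16 named genes whose change differed between genotypes. Clock is at -0.15 and 0.84, Got1 at -0.77 and 1.04, and Cd207 at 1.79 and -1.32. Values are from the fit without length offsets.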

How the data were processed

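Liver RNA (poly(A), unstranded TruSeq libraries, 75-bp single-end reads) had been aligned by the authors to mm10 with TopHat2 2.1.1, keeping unique alignments, and counted per gene with HTSeq 0.6.1. The deposited raw counts of 23411 genes, which the authors had not normalized, were used here; deposited FPKM tables were not used. The 18 fed libraries, in 6 groups of genotype and time, were fitted together with edgeR 4.0.16 in R 4.3.3 (filterByExpr, TMM factors, glmQLFit, glmQLFTest, Benjamini-Hochberg adjusted p under 0.05), leaving 13334 genes. CPM are counts over the library size times its TMM factor, errors of log2 fold changes are standard errors, and precision is limited by 3 mice per group. One α7HMZ 10:30 library in the fit had 67.5% of its counts in 10 genes. Alternatives were other scalings, DESeq2 1.42.0, other filters, other sets of libraries, the replicate number as a block, leaving out each library, and offsets by transcript length (99.3% of tested genes had a length). Named genes were the clock genes, in each direction the 12 largest changes without overlap (mean log2 CPM of at least 1) and the 6 smallest p, the 4 smallest p of every other list, and the 8 smallest p of the genotype difference. Genes named beyond that rule were chosen after their values were seen. The comparison, the 41 gene lists and the 12 marker lists were chosen with earlier results of these data known. Replicates agreed less closely than sampling noise would give, so no library was a copy of another. Some genes of the lists are counted in them but are not reported here by name.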

Additional observations from a re-analysis of the deposited data

Results flagged for a closer look

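The genes below had a change from 13:30 to 20:30 that differed between WT and α7HMZ liver by a test of the difference itself in edgeR (adjusted p under 0.05). Differences are log2 fold change in α7HMZ minus log2 fold change in WT. They were positive for Clock (0.98), Mbd1 (1.74), Abcd2 (1.33), Pik3c2g (3.37), Znrf2 (1.72), Hspa1a (2.37), Got1 (1.81) and Rapgef2 (0.93). They were negative for Hist1h1c (-1.94), Pcp4l1 (-1.76), 8430419L09Rik (-1.28), Inhbc (-0.93), Cd207 (-3.12), Ttc23 (-0.94), Paqr7 (-1.48) and Slc10a2 (-2.97). Adjusted p ranged from 0.00078 for Cd207 to 0.046 for Abcd2 and Hspa1a. Mbd1, Abcd2, Pik3c2g, Znrf2 and Rapgef2 fell in WT, with log2 fold changes in α7HMZ of -0.58, -0.83, 1.21, 0.08 and 0.04. Hist1h1c, Pcp4l1, Inhbc, Ttc23 and Paqr7 rose in WT, with log2 fold changes in α7HMZ of 0.24, 0.35, -0.22, -0.22 and -0.22.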

How the results depend on the processing

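Leaving out each WT library in turn gave 866 to 1500 genes higher, 830 to 1186 lower, 5 to 32 genes whose change differed between genotypes, and 131 to 261 list members higher and 53 to 68 lower, against 1550, 1329, 30, 249 and 71. Requiring a change of 1 or more on the log2 scale left 219 higher, 303 lower, and 35 and 32 list members. With transcript length offsets 788 genes fell, 16 differed between genotypes and 135 list members rose, and Clock in WT turned to 0.31 (uncalled in either fit, adjusted p = 0.087). The cause was not tested. Offsets for GC content with full quantile scaling left 145 list members higher. The genotype difference was called for 219 genes by DESeq2, 19 with all 24 libraries, 58 with no filter on low counts and 52 in the 12 fed libraries of the 2 times. Upper quartile scaling gave 1816 higher and 1251 lower, and the 6 WT libraries alone gave 1204 and 1442, so that 59.2% and 45.5% of calls were higher against 53.8%.

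Replicate numbers did not pair the samples, since deviations of same-numbered libraries correlated at 0.14, -0.08 and -0.04. With the replicate block 1481 genes rose, 1269 fell and 20 differed between genotypes, and 257 and 68 list members were called. Of 168 called values of named genes, 25 lost their call with length offsets, 18 with GC and quantile offsets, none by DESeq2, and 5 to 28 without 1 library. WT 20:30 replicate 2, the shallowest library, limits genes of low count.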
